A study of Mus musculus with 4 samples.

Results

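The EGFR ligands are the secreted or shed growth factors that bind the epidermal growth factor receptor, and they were taken by symbol from the deposited gene counts. The list held 6 genes, Areg, Hbegf, Tgfa, Btc, Ereg and Egf, out of 40092 rows, and all 6 were found once each. The counts came from RNA-seq of alveolar type II (AT2) cells, the surfactant-producing progenitors of the alveolus, sorted as GFP+ cells from mouse lung on day 14 after bleomycin, an agent that injures the alveolar epithelium. Control mice (Ctrl, 2 libraries) had the genotype Alkbh5flox/+; Sftpc-CreERT2; Rosa26-mTmG, and AT2-specific knockout littermates (A5-CKO, 2 libraries) had Alkbh5flox/flox; Sftpc-CreERT2; Rosa26-mTmG. Tamoxifen was given to both groups, and the Ctrl cells carried the same Cre and reporter with 1 floxed copy of Alkbh5, an m6A RNA demethylase. The green sort keeps every descendant of a cell in which the Sftpc driver was active at tamoxifen, whatever it has become by day 14. The comparison asks which of the ligands differ in mRNA level when AT2 cells lack Alkbh5 during repair.

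All 6 ligands are made as membrane-anchored precursors with an EGF-like domain, and proteases of the ADAM family cut them free. Binding brings 2 receptors of the ErbB family together and starts the ERK cascade, whose target genes include ligands themselves. In the injured alveolus, EGFR signalling is known to promote epithelial spreading, growth and survival. Areg (amphiregulin) and Tgfa bind EGFR alone, whereas Hbegf (heparin-binding EGF-like growth factor), Btc (betacellulin) and Ereg (epiregulin) also act through ErbB4.

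Of the 6 ligand promoters, 4 were found in the RefSeq promoter table for GRCm38.p6. For Areg, Btc and Egf the 120 bases before the annotated start are shown, since these windows lie outside the annotated range of the gene. Capitals mark matches on either strand to 4 motifs. These were the full cAMP response element (TGACGTCA), bound by CREB, and the AP-1 site (TGAGTCA), bound by Fos and Jun proteins. The others were the TATA box (TATAAA), which positions the start of transcription in some promoters, and the GC box (GGGCGG), bound by Sp1. The windows lie at chr5:91139479-91139598 (plus strand) for Areg, chr5:91402995-91403114 (minus strand) for Btc and chr3:129755323-129755442 (minus strand) for Egf, where the window overlaps an exon of the antisense gene 6330410L21Rik.
Areg: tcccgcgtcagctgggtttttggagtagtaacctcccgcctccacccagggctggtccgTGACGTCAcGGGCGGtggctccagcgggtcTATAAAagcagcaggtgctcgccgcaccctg
Btc: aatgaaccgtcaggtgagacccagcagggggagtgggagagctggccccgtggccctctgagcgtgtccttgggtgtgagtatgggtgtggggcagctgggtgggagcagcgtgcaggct
Egf: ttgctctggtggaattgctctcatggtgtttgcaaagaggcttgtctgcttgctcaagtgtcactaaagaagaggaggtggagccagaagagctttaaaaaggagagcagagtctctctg
The Areg window held a full cAMP response element at -61 to -54, a GC box at -52 to -47 and a TATA box at -31 to -26, counted from the start site, and none of these overlapped. Over the whole 300 bases of each of 32851 promoters, the full cAMP response element occurred in 1.79%, the TATA box in 13.6%, the GC box in 35.7% and the AP-1 site in 5.20%. The Tgfa promoter, whose last 120 bases before the start lie inside the range of another annotated transcript of the gene and are not shown, held only GC boxes, at -126 to -121 and at -15 to -10. Btc and Egf held none of the 4 motifs in their 300 bases.

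Since the deleted gene removes m6A, the letters GGACT, a common form of the methylated motif, were counted on the sense strand of the longest protein-coding transcript of each ligand. Areg held 3 in 1215 bases (2.47 per kb) and Hbegf 6 in 2375 bases (2.53 per kb), a density above that of 94.8% and 95.3% of the 13692 tested protein-coding genes, whose median was 1.05 per kb. Egf held 8 (1.68 per kb, above 80.2% of those genes) and Tgfa 4 (0.884 per kb, above 39.3%). Btc held 2 (0.695 per kb, above 27.4%) and Ereg 1 (0.242 per kb, above 8.06%). The 3 sites of the Areg transcript, with GGACT in capitals, all lay in its coding sequence. Site 1 is in exon 2 of 6 at chr5:91140978-91140982, site 2 in exon 2 at chr5:91141052-91141056 and site 3 in exon 5 at chr5:91146709-91146713 (GRCm38, plus strand).
Areg site 1: gtgccggtGGACTtgagcttt
Areg site 2: tccacaggGGACTacgactac
Areg site 3: agaaaacgGGACTgtgcatgc
A match is a run of letters and not a measured methylation site, since m6A was not analysed here.

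The libraries held 18144865 to 20811757 counts, and normalised counts are given as CPM, counts scaled to the library size after TMM factors. A count of 3, the floor for a gene not detected, was 0.128 to 0.177 CPM and covers counting error only. Among genes with 1 to 4 counts in a library, 77.4 to 81.0% had an even count (49.1 to 51.6% among high counts), so that 2 counts may be a single read pair. Of the 40092 genes, 16661 passed the filter on low counts and were tested with edgeR's quasi-likelihood test. Values of single libraries below run in the order Ctrl 1, Ctrl 2, A5-CKO 1, A5-CKO 2. The targeted gene Alkbh5 stood at 81.7 and 152 CPM against 19.3 and 36.6 CPM (log2 fold change -2.06, standard error 0.46, adjusted p = 0.528 in edgeR). Reads were thus still counted for the gene in the knockout cells. The paper places the loxP sites around the start codon and exon 1, and counts per gene do not separate that exon from the others. The labelled cell type carried its markers: Sftpc was at 15477 and 16370 CPM in the Ctrl libraries and at 10268 and 7856 CPM in the A5-CKO libraries. No gene had an adjusted p under 0.05 in edgeR (0%) or in limma voom, whereas DESeq2 called 64 on the same genes and 59 with its default filtering. At an unadjusted p under 0.05, edgeR gave 746 genes higher (4.48%) and 784 lower (4.71%) in A5-CKO, a split that became 992 and 493 with upper-quartile factors and 1706 and 171 with total counts only, where the median of all genes moved from -0.02 to 0.30.

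Of the 6 ligands, Areg and Hbegf were higher in A5-CKO at an unadjusted p under 0.05, against 4.48% of all genes, and 0 passed after adjustment. Both A5-CKO libraries lay above both Ctrl libraries for 3 ligands (Areg, Hbegf and Egf), against 20.3% of all genes, and below them for 0, against 23.5%. With 1 library left out, which leaves 1 library in a genotype, the log2 fold change was 0.77 to 1.60 for Areg and 0.90 to 1.74 for Hbegf. For Ereg it was 0.29 to 6.45. The ligands had a median log2 fold change of 1.20, against -0.02 over all genes tested. That median was 0.48 with at least 10 counts in every library, where only Areg, Hbegf, Tgfa and Btc were tested, and it was 0.77 without Ctrl 2, 0.69 without A5-CKO 2 and 1.67 without Ctrl 1. Because Egf passed the filter through the A5-CKO libraries alone, its difference in that direction was built into the test. In sorted bulk samples, more cells with a transcript and more transcript per cell cannot be told apart.

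**Figure D1:**
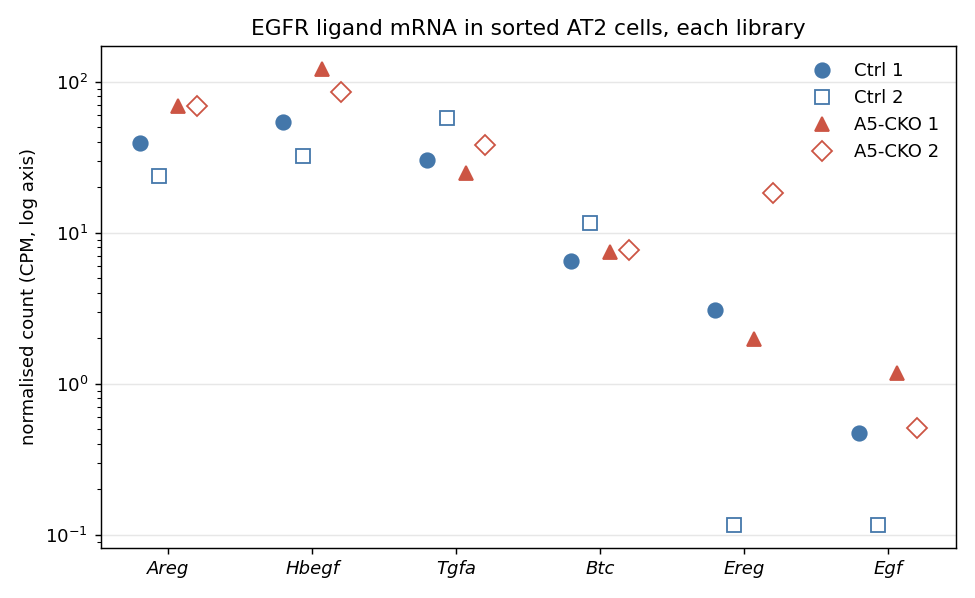
Normalised counts (CPM, log axis) of the 6 EGFR ligands in each of the 4 libraries, with Ctrl in blue and A5-CKO in red. For Areg, Hbegf and Egf both red points lie above both blue points, whereas the Tgfa, Btc and Ereg points of the genotypes overlap.

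Areg (chromosome 5, 91139599 to 91148432, 6 exons), the ligand that the study follows into repair, gave 668 and 408 counts in controls against 1524 and 1625 in knockouts. The A5-CKO libraries differed from each other by a ratio of 1.01 in CPM, a spread smaller than that of 98.8% of genes in those libraries, and the Ctrl libraries by 1.66. The fold was 2.19, with a 95% interval from 1.24 to 3.87 (unadjusted p = 0.0140 and adjusted p = 0.528 in edgeR), and Areg ranked 318th of all genes by p. Its log2 fold change was 1.60 without Ctrl 1, a fit with a single Ctrl library. The unadjusted p was 0.0589 without Ctrl 2, 0.0612 without A5-CKO 1 and 0.0632 without A5-CKO 2, while the log2 fold change stayed at 0.77 or above.

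Hbegf, which lies on chromosome 18 (36504927 to 36515805, 6 exons), had 907 and 554 counts in the Ctrl libraries and 2688 and 2004 in the A5-CKO libraries. In CPM these were 53.6 and 32.2 against 122 and 85.7, a mean of 42.9 ± 15.1 against 104 ± 25.5 (SD, n = 2). The groups did not overlap, and the fold was 2.42 (95% interval 1.32 to 4.42, log2 fold change 1.27 ± 0.37 standard error, adjusted p = 0.528 in edgeR). Its unadjusted p in the edgeR model across all genes was 0.0108, which rose to 0.0890 without A5-CKO 1. Hbegf was therefore at least as far from 0 as Areg in fold and rank (228th), and the intervals of the 2 ligands covered each other's estimates.

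Among the ligands, Areg and Hbegf had the most similar profiles across the libraries, although their ratio differed between the A5-CKO libraries. The ratio of Areg to Hbegf counts was 0.736 in both controls, against 0.567 and 0.811 in the knockouts. Over the 15 pairs of ligands, theirs was the smallest root-mean-square difference between profiles of centred log2 CPM over the 4 libraries (0.19), followed by Tgfa and Btc (0.24). The largest was that of Tgfa and Ereg (2.54). Genes outside the list came closer to each, such as Zfp626 to Areg (0.05) and Fam135a to Hbegf (0.04). By the level of Hbegf the libraries ran from A5-CKO 1 through A5-CKO 2 and Ctrl 1 down to Ctrl 2, the reverse of their order by Alkbh5. Areg did not follow that order within A5-CKO, with 69.0 CPM in A5-CKO 1 and 69.5 CPM in A5-CKO 2. A relation between the level of Alkbh5 and that of a ligand was not tested.

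Tgfa (chromosome 6, 86195038 to 86275744, 6 exons) had 512 and 984 counts in the Ctrl libraries and 552 and 897 in the A5-CKO libraries, so that the genotypes overlapped. Its CPM values were 30.3, 57.2, 25.0 and 38.3 in that order, and its log2 fold change was -0.47 (95% interval -1.46 to 0.53, adjusted p = 0.701 in edgeR). The interval allows a fold from 0.363 to 1.44, and without Ctrl 2 the log2 fold change was 0.03. Btc (chromosome 5, 91357261 to 91402994, 6 exons) had 110 and 198 counts against 165 and 179, or 6.50 and 11.5 CPM against 7.47 and 7.65 CPM. Its log2 fold change was -0.25 (95% interval -1.43 to 0.92, adjusted p = 0.872 in edgeR), and it turned to 0.08 with total counts only and 0.17 without Ctrl 2. Neither ligand differed beyond its spread, and for both the highest library was Ctrl 2. The ratio of Btc to Tgfa counts lay between 0.200 and 0.299 in the 4 libraries.

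**Figure D2:**
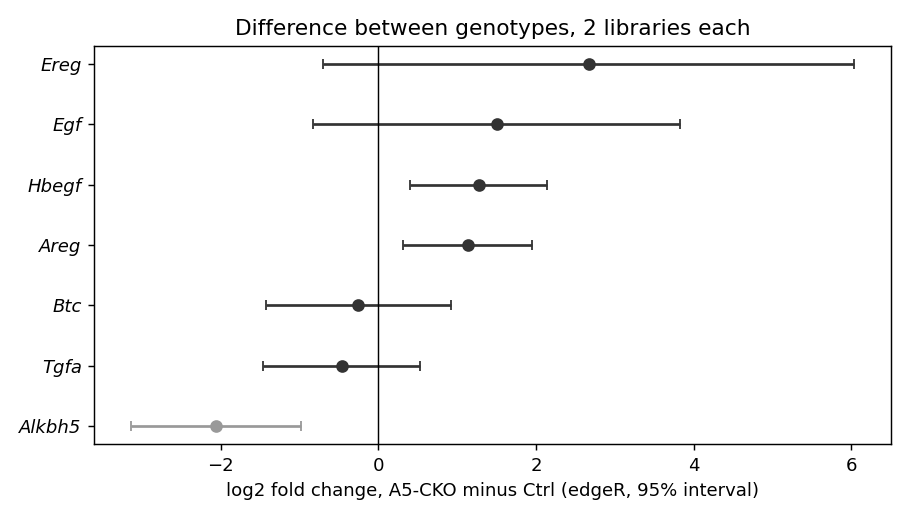
Log2 fold change of each ligand and of Alkbh5 between A5-CKO and Ctrl with its 95% interval from edgeR, 2 libraries in each group. The intervals of Hbegf and Areg lie above 0, and those of Ereg, Egf, Btc and Tgfa include 0.

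Ereg (chromosome 5, 91074617 to 91093649, 5 exons) had the widest spread of the ligands. Counts were 52 and 2 in controls against 44 and 428 in knockouts, or 3.07, 0.116, 1.99 and 18.3 CPM. Ctrl 2 lay under the floor of 3 counts, Ctrl 1 lay above A5-CKO 1, and 1 library, A5-CKO 2, held most of the counts. The gap between the libraries of a genotype exceeded that of 99.4% of genes in Ctrl and 98.6% in A5-CKO. The log2 fold change of 2.67 had an interval from -0.71 to 6.04 (adjusted p = 0.555 in edgeR), and it was 0.29 without A5-CKO 2 and 6.45 without Ctrl 1, where the only Ctrl library left had 2 counts.

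Several marker lists had their highest sums in A5-CKO 2 and Ctrl 1, the libraries highest in Ereg. The summed level of 12 macrophage and monocyte markers was 3147 and 691 CPM in controls against 630 and 2349 CPM in knockouts, and that of 8 fibroblast markers was 400, 153, 97.1 and 1026 CPM. The sum of 10 transitional cell markers, which are epithelial, was 3853, 1673, 2489 and 4146 CPM and ranked the libraries in the same order as Ereg. Endothelial markers, at 94.3, 158, 95.8 and 147 CPM, and the T cell and innate lymphoid markers, at 68.3, 40.9, 65.6 and 42.7 CPM, did not. The part of any of these cells in the Ereg values was not tested. The genes with the profile most like that of Ereg, among 14956 genes with a mean of at least 1 CPM, were Igkv1-110 (root-mean-square difference 0.12), Fst (0.18) and Ighv1-19 (0.19). Igkv1-110 and Ighv1-19 are immunoglobulin variable segments, whose products are made by B lineage cells, and Igkv1-110 had 16.0, 1.16, 9.51 and 97.8 CPM.

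Egf (chromosome 3, 129677574 to 129755322, 24 exons), the founding member of the family, was near the floor with 8, 2, 26 and 12 counts. At 0.473 and 0.116 CPM in controls against 1.18 and 0.513 CPM in knockouts, the groups did not overlap, but the interval of the log2 fold change of 1.50 ran from -0.83 to 3.83 (adjusted p = 0.602 in edgeR). Left-out libraries moved it from 0.77 (without Ctrl 2) to 2.84 (without Ctrl 1), and a difference was not detectable at this depth.

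To compare the ligands with each other, CPM was divided by transcript length. Areg led in every library with 32.5, 19.5, 56.8 and 57.2 CPM per kb, followed by Hbegf with 22.6, 13.6, 51.2 and 36.1, and then by Tgfa with 6.69, 12.6, 5.52 and 8.47. Btc had 2.26 to 4.01, Ereg 0.0282 to 4.43 and Egf 0.0244 to 0.247 CPM per kb. Within Ctrl, the ranges of Areg and Hbegf and those of Ereg and Egf overlapped, and within A5-CKO those of Btc and Ereg did. All other neighbours in the order were separated in both genotypes. The order depends on the transcript chosen, since other isoforms would change the length.

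The summed level of the 6 ligands was 64.9 and 49.8 CPM per kb in Ctrl and 117 and 108.9 in A5-CKO. Areg and Hbegf together made up 84.9% and 66.5% of it in controls against 92.4% and 85.6% in knockouts. Tgfa made up 10.3% and 25.4% in controls against 4.72% and 7.78% in knockouts. The genotypes were thus separated on both shares, by a small margin for Areg and Hbegf, and Ctrl 2 stood apart from the other 3 libraries. With 2 libraries a group, an exact permutation test of a single share cannot give a two-sided p under 0.333. Counts of 2 genes in 1 library need no scaling factor, and the ratio of Hbegf to Tgfa was 1.77 and 0.563 in controls against 4.87 and 2.23 in knockouts. That of Areg to Tgfa was 1.30 and 0.415 in controls against 2.76 and 1.81 in knockouts, also without overlap.

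**Figure D3:**
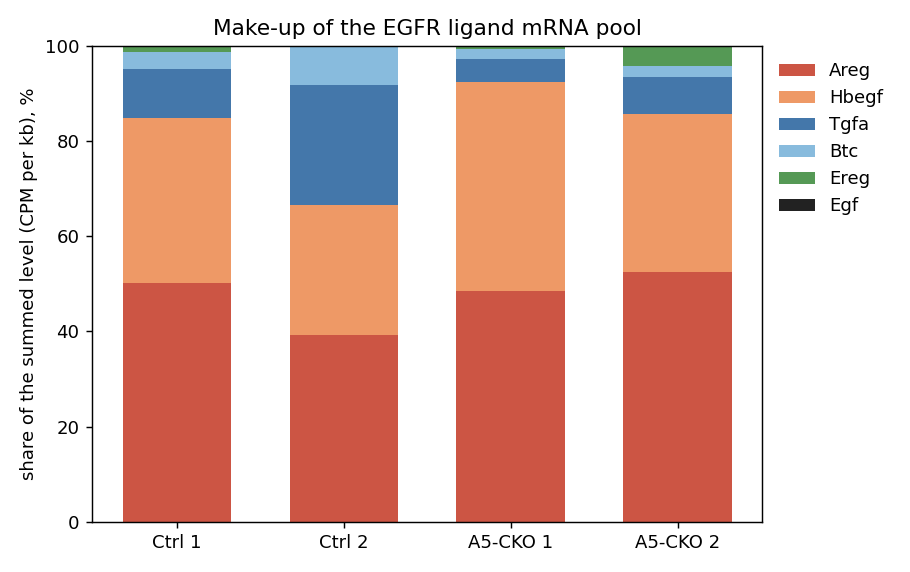
Share of each ligand (%) in the summed level of the 6 EGFR ligands, in CPM per kb of transcript, for each library. Areg and Hbegf make up 66.5 to 92.4% of every bar, and Tgfa is largest in Ctrl 2 with 25.4%.

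Areg, Ereg and Btc lie in a cluster on chromosome 5 with Epgn (epigen), another EGFR ligand, within 375.5 kb. Epgn had 4, 0, 10 and 6 counts and was not tested. Of the 21 annotated genes within 500 kb of Areg, 12 were tested. Besides Areg itself, which defines the window, Cxcl2 and Gm19610 were higher in A5-CKO at an unadjusted p under 0.05 in edgeR (4.48% of all genes), and 0 were lower (4.71%). Cxcl2, a neutrophil-attracting chemokine, went from 383 and 309 counts to 1209 and 2505 (log2 fold change 1.99, standard error 0.41, adjusted p = 0.528 in edgeR, 0.0137 for DESeq2 run with default filtering). Its neighbour Cxcl1 had 706 and 170 counts against 241 and 165, a log2 fold change of -1.52 (adjusted p = 0.528 in edgeR), and Cxcl15, a chemokine of lung epithelium, had -0.55 with 4202 and 6447 counts against 4884 and 4768. Gm19610, a long noncoding RNA gene whose annotation overlaps the start of Ereg, had 0, 2, 15 and 72 counts. Because the strand setting of the counting was not given, reads of Gm19610 and Ereg may not be told apart there. Gm19610 also passed the filter through the A5-CKO libraries alone, so that its difference in that direction was built into the test. Rassf6, Mthfd2l and Parm1 had log2 fold changes of 0.28, 0.18 and 0.86, and Cxcl5 and Ppbp of -0.95 and -0.57 with 1 to 91 counts, all with adjusted p of 0.677 or above in edgeR.

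**Figure D4:**
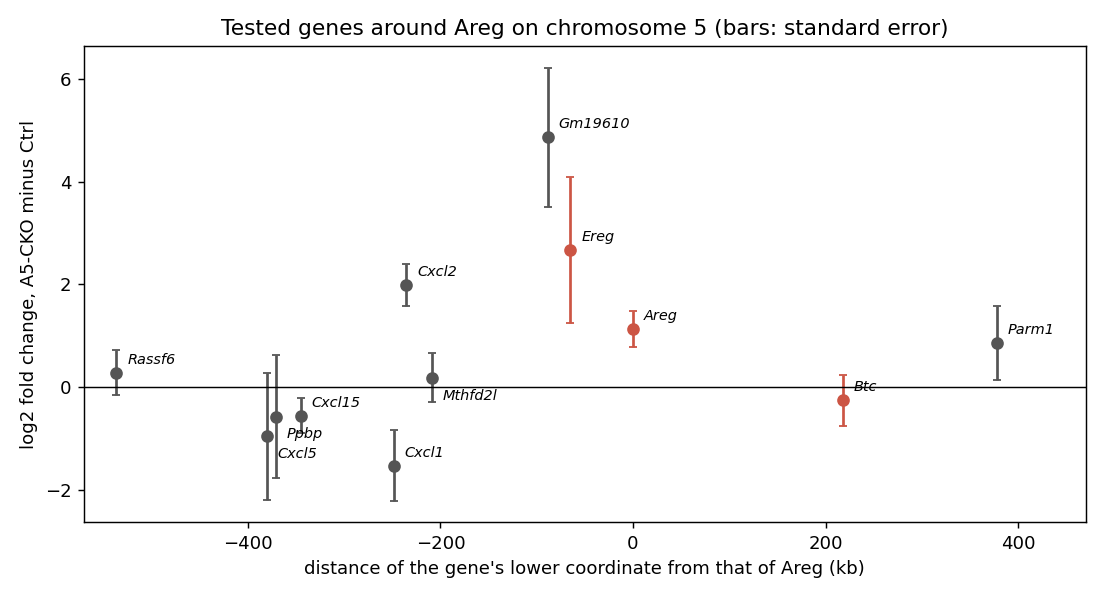
Log2 fold change with its standard error (A5-CKO minus Ctrl) of the 12 tested genes within 500 kb of Areg, against the distance of each gene's lower coordinate from that of Areg in kb, with ligands in red. Values on both sides of 0 lie among the neighbours, from -1.52 for Cxcl1 to 4.86 for Gm19610, which passed the filter through A5-CKO alone.

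The genes whose profiles were most like that of Areg were Zfp626, Dnm3 and Fgf2 (root-mean-square differences of 0.05, 0.07 and 0.07 over the 4 libraries), and Fgf2, a fibroblast growth factor, had 4.61 and 2.97 CPM in controls against 7.97 and 7.74 CPM in knockouts. Those most like Hbegf were Fam135a (0.04), Cd2ap (0.05) and Ier5 (0.06), an immediate early response gene with 81.4 and 49.6 CPM against 179.6 and 119 CPM. Nexn, Gm12258 and 5031434O11Rik were nearest to Egf (0.09 to 0.11). Tpcn1, 1700088E04Rik and 8430432A02Rik were nearest to Tgfa (0.03 to 0.04), and Sgsh, Stat3 and Diaph1 to Btc (0.02 each). Likeness over 4 libraries is a description and was not tested.

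The neuregulins, which bind ErbB3 and ErbB4, reached at most 3.77 CPM per kb (Nrg4 in A5-CKO 2), below the lowest Areg and Hbegf values. Nrg1 had 8.10, 1.51, 5.93 and 17.7 CPM with overlapping genotypes, was highest in A5-CKO 2 as Ereg was, and had a log2 fold change of 1.30 (95% interval -0.77 to 3.37). Nrg4, a ligand of ErbB4, had 5.38 and 4.31 CPM in controls against 7.20 and 7.27 CPM in knockouts, a log2 fold change of 0.58 (95% interval -0.58 to 1.74, adjusted p = 0.684 in edgeR). Nrg2 had 6 to 24 counts and passed the filter through A5-CKO alone, and Nrg3 had none. Of the 3 neuregulins tested, 0 had an unadjusted p under 0.05 in edgeR (4.48% of all genes higher and 4.71% lower).

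Downstream of the ligands, the receptors showed no called difference. Egfr had 9.52 and 12.9 CPM in controls against 12.1 and 15.8 CPM in knockouts, a log2 fold change of 0.31 (adjusted p = 0.809 in edgeR) that became -0.22 with a correction for transcript length and GC content. Erbb2, the shared partner receptor, had 104.8 and 127.7 CPM against 78.2 and 73.9 CPM (log2 fold change -0.61, adjusted p = 0.528 in edgeR). Of 6 genes of ligand shedding, 0 had an unadjusted p under 0.05 in edgeR (4.48% of all genes higher and 4.71% lower). Both A5-CKO libraries lay above both Ctrl libraries for 1 of the 6 (20.3% of all genes) and below them for 3 (23.5%). Adam10, a sheddase, had a log2 fold change of 0.52, and Rhbdf1, an inactive rhomboid that guides the sheddase ADAM17, had -0.60. Of 15 tested genes of EGFR and ERK feedback, 1 was higher at an unadjusted p under 0.05 (4.48% of all genes) and 0 lower (4.71%). This was Dusp5, an ERK phosphatase, with 6.56 and 6.40 CPM against 18.8 and 11.2 CPM (log2 fold change 1.21). The median of the list was 0.28, against -0.02 over all genes. Lrig1, an inhibitor of the receptor, had -0.97.

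Of 15 ERK-induced transcription factors tested, 5 were higher at an unadjusted p under 0.05 (4.48% of all genes) and 0 lower (4.71%). Their median was 1.02, against -0.02 over all genes, and it fell to 0.09 without A5-CKO 1. Klf4 had 36.7 and 31.2 CPM against 138 and 74.7 CPM, and Klf6 189 and 164 CPM against 814 and 285 CPM. The summed level of all 16 genes on the list did not follow the genotype, at 3950 and 7633 CPM in controls against 11752 and 3443 CPM in knockouts. The list was chosen with earlier results known and is a description.

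Beside the ligands, markers of AT2 cells had lower values in A5-CKO. All 10 on the list did so. Of the 10, 2 had an unadjusted p under 0.05, against 4.71% of all genes lower, and 7 did not overlap between the genotypes, against 23.5%. The median log2 fold change was -0.86 (-0.53 with total counts only). The summed level was 56704 and 82175 CPM in Ctrl against 42221 and 34897 CPM in A5-CKO. The markers included Napsa (-1.13) and the surfactant protein gene Sftpb (-1.12), which has a second copy on a genome patch that shares its reads. Of 8 club and ciliated cell markers 7 had lower values, 3 of them at an unadjusted p under 0.05 (4.71% of all genes), among them Foxj1 and Ccdc153. Muc5b was higher at an unadjusted p under 0.05 in edgeR (4.48% of all genes). The sum of the 8 was 2922 and 2833 CPM against 2055 and 1310 CPM. The 10 transitional cell markers had fitted log2 fold changes above 0, but 8 of them overlapped between the genotypes and 0 had an unadjusted p under 0.05. The other 2 had both A5-CKO libraries above both Ctrl libraries, against 20.3% of all genes. The median of the 10 was 0.24, and it was -0.22 without Ctrl 2, -0.26 without A5-CKO 2 and 1.49 without Ctrl 1. Sprr1a had 54.2, 13.0, 63.6 and 107 CPM. Of 8 AT1 markers tested, 7 had higher values, while Aqp5 had a log2 fold change of -0.79. Both A5-CKO libraries lay above both Ctrl libraries for 5 of the 8, against 20.3% of all genes. They lay below for 1, Aqp5, against 23.5%. Vegfa alone (0.98) had an unadjusted p under 0.05 in edgeR, against 4.48% of all genes higher. Ager (2, 6, 2 and 4 counts) and Pdpn (3, 0, 17 and 3 counts) did not pass the filter. The sum of the 10 AT1 markers was 2501.5 and 2408.8 CPM in Ctrl against 2637 and 2576 CPM in A5-CKO. The part of the epithelial mix in the ligand values was not tested.

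Immune and stromal cells can also make EGFR ligands. T cell and innate lymphoid markers summed to 68.3 and 40.9 CPM in controls against 65.6 and 42.7 CPM in knockouts over 12 genes. Of the 12, 5 had log2 fold changes above 0 and 7 below, with a median of -0.08. None had an unadjusted p under 0.05 in edgeR (4.48% of all genes higher and 4.71% lower). Within that list Il7r (7.98, 2.15, 11.0 and 10.6 CPM), Il2ra (1.18, 0.698, 1.63 and 1.75 CPM) and Il1rl1 (0.710, 0.233, 0.996 and 2.78 CPM), cytokine receptor genes of T and innate lymphoid cells, had both A5-CKO libraries above both Ctrl libraries. These were 3 of 12, against 20.3% of all genes. Trac, a T cell receptor gene, was the 1 with both below (3.55, 1.57, 1.18 and 0.256 CPM), against 23.5% of all genes, and the other 8 overlapped. Of 7 mast cell and basophil markers 2 were tested, their sum was 7.04 to 11.1 CPM in Ctrl and 10.2 to 10.6 CPM in A5-CKO, and Ms4a2, Fcer1a and Tpsb2 were at or under 3 counts in every library. The sums of the 12 macrophage and monocyte markers were given with Ereg. Of the 12, 1 was higher in A5-CKO at an unadjusted p under 0.05, against 4.48% of all genes. This was Ptprc, a gene of leukocytes in general, with 50.9 and 22.5 CPM against 84.3 and 82.8 CPM. It alone had both A5-CKO libraries above both Ctrl libraries, against 20.3% of all genes, and the rest overlapped. Endothelial markers summed to 94.3 and 158 CPM against 95.8 and 147 CPM, and Cldn5 had no counts. The part of these cells in the Areg and Hbegf values was not tested.

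**Figure D5:**
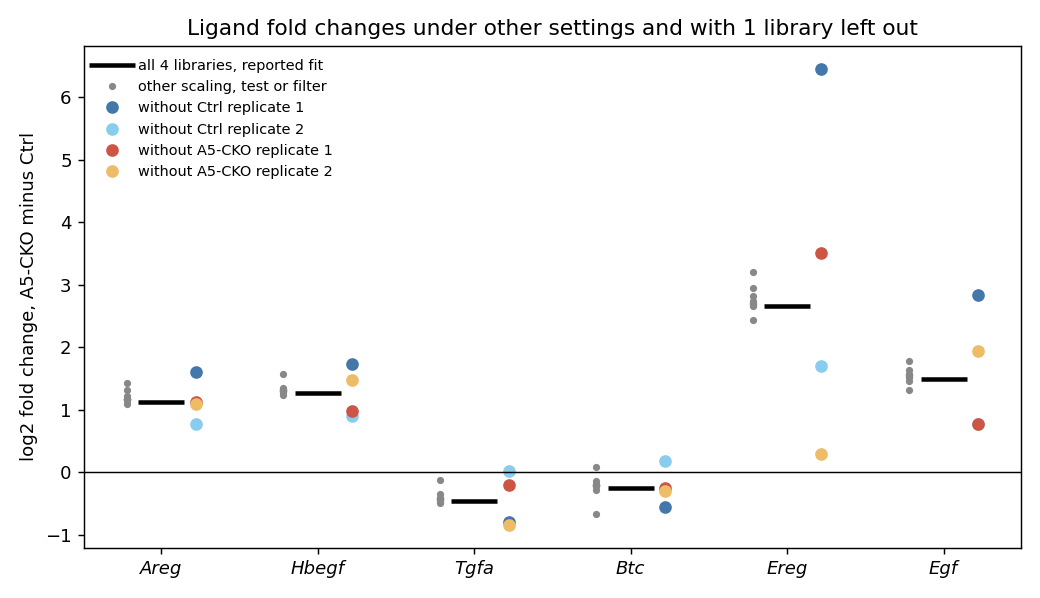
Log2 fold change (A5-CKO minus Ctrl) of each ligand in the reported fit (black bars), under other scalings, tests and filters (grey) and with 1 library left out (coloured). Areg (0.77 to 1.60) and Hbegf (0.90 to 1.74) are above 0 in each, Tgfa (-0.84 to 0.03) and Btc (-0.67 to 0.17) have values on both sides of 0, and Ereg moves from 0.29 to 6.45.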

How the data were processed

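RNA-seq libraries labelled as 2 Ctrl and 2 A5-CKO replicates were analysed, with groups taken from the genotype label. The authors deposited whole read counts per gene, without normalization, for all 4 libraries. Per the labels, reads were trimmed with Trim Galore 0.6.10, aligned with HISAT2 2.2.1 to mm10 and counted with featureCounts 2.0.3. The strand setting was not given in the sources used here. Of the rows, 223 lie on genome fix patches, none of them a ligand. The members, gene lists and tests were chosen with earlier results of these data known.

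The counts were fitted here with edgeR 4.0.16 in R 4.3.3 (TMM factors, filterByExpr, quasi-likelihood test, Benjamini-Hochberg correction across the 16661 genes that passed). Its shared dispersion of 0.173 equals a coefficient of variation between libraries of 41.6%. Intervals are 95% intervals of the log2 fold change. DESeq2 1.42.0, limma voom (limma 3.58.1), other scalings and filters, a correction for transcript length and GC content, a replicate block and left-out libraries were the alternatives. Transcript lengths and exons are from GENCODE M21, coordinates and promoters from RefSeq on GRCm38.p6. Genes named were the ligands, the other EGF-family ligands, Alkbh5, genes within 500 kb of Areg, the 3 most similar profiles for each ligand (log2 CPM with a prior count of 2) and the 2 of smallest p in each list. Sftpc, Il7r, Il2ra and the markers without counts were named besides, after their values were seen. The labels do not say which or how many mice a library came from, so p-values measure only the spread between these libraries, which may be technical. The fit was tested on simulated data.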

Additional observations from a re-analysis of the deposited data

How the results depend on the processing

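No ligand had an adjusted p under 0.05 in edgeR, DESeq2 or limma voom under any planned setting, and the adjusted p ranged from 0.216 to 0.847 for Areg and from 0.167 to 0.847 for Hbegf over the 11 alternatives with all 4 libraries. Across those, the log2 fold change was 1.10 to 1.43 for Areg, 1.23 to 1.57 for Hbegf, 1.32 to 1.79 for Egf in the 9 that tested it, 2.43 to 3.21 for Ereg in 10, -0.49 to -0.13 for Tgfa and -0.67 to 0.08 for Btc, and Areg and Hbegf kept an unadjusted p under 0.05 in each. With 1 library left out the range was 0.77 to 1.60 for Areg, 0.90 to 1.74 for Hbegf, 0.77 to 2.84 for Egf, -0.84 to 0.0281 for Tgfa, -0.55 to 0.17 for Btc and 0.29 to 6.45 for Ereg. The number of ligands with an unadjusted p under 0.05 was 1 to 3 there, and their median log2 fold change 0.69 to 1.67. At least 10 counts in every library left Areg, Hbegf, Tgfa and Btc, with a median of 0.48. Halving each count, rounded up, was added after seeing the data and gave 1.15 for Areg and 1.29 for Hbegf. The causes of these changes were not tested.

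With total counts only, Btc turned to 0.0797, Sgsh to 0.0946, Stat3 to 0.0879 and Diaph1 to 0.0914. The correction for length and GC content turned Egfr to -0.22 and Tek to -0.0071. DESeq2 called Alkbh5 at -2.01 (adjusted p = 0.0214) on the same genes and -2.02 (adjusted p = 0.0235) with default filtering, and called 64 and 59 genes in all. Left-out libraries gave values on both sides of 0 for Itgam (-0.59 to 1.41), Kit (-0.12 to 0.61), Cma1 (-2.38 to 0.65), Col1a2 (-1.44 to 2.25), Tek (-0.36 to 0.57), 1700088E04Rik (-0.80 to 0.0465), Sgsh (-0.54 to 0.20), Stat3 (-0.54 to 0.18), Diaph1 (-0.54 to 0.18), Fst (-0.18 to 6.25), Ighv1-19 (-0.19 to 6.31), Rassf6 (-0.19 to 0.64), Cxcl5 (-3.87 to 0.76) and Ppbp (-3.28 to 0.29).

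The labels number the libraries 1 and 2 in both genotypes. Same-numbered libraries did not deviate together (correlation -0.35), so the numbers were not taken as pairs. The replicate block moved the genes with an unadjusted p under 0.05 in edgeR from 1530 to 754, and left Areg at 1.18 and Hbegf at 1.30. Crossing the numbers as a block, added after seeing the data, gave 2582 such genes, with 230 genes and 2 ligands at an adjusted p under 0.05. The labels do not pair Ctrl 1 with A5-CKO 2. Since same-numbered libraries deviated in opposite directions in these same data, that block takes up residual spread by its choice. The further calls follow from that choice and are not a test of the ligands. With 1 library left out, 746 (without A5-CKO 1) to 1668 (without Ctrl 1) genes had an unadjusted p under 0.05.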
